A study of Mus musculus with 6 samples.

Results

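H3K4 signal over input chromatin was described gene by gene in mK3, an immortalized mouse cell line of the E11.5 metanephros, the embryonic kidney, labelled as strain CD1. Chromatin immunoprecipitation followed by sequencing (ChIP-seq) recovers chromatin fragments bound by an antibody and counts their DNA, and input is the same chromatin without pull-down. The mK3 group with the antibody labelled H3K4 and the mK3 input group had 1 library each. The lines mK4 (H3K4 and input, 1 library each) and the mK3 library with the antibody labelled H3K27 were used only to show where mK3 H3K4 differed. The labels name no treatment, an immortalized line is a limited model of the embryonic kidney, and no expression was measured that could check the cell type against its markers. Each library's count was divided by its own total, 595305 reads for mK3 H3K4 and 311409 for mK3 input, and the ratio of these shares was taken at every gene with at least 10 reads in both files together. This held for 17584 of 21937 gene symbols, while 4353 had fewer reads, 869 of them none. At the minimum itself stood 358 genes with 10 reads, and just under it 352 with 9. With 1 library in each group no test could be made, no difference has a replicate check, and the 95% intervals given with each fold are exact (Clopper-Pearson) and cover counting error only.

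Methylated lysine 4 of histone H3 is a mark of active chromatin. Its trimethylated form sits at the start sites of active and CpG-rich genes, its monomethylated form at enhancers, and it is written by the MLL and SET1 complexes. In kidney progenitors it is found at genes in use and, together with H3K27 trimethylation, at developmental genes held ready for use. The deposited counts cover exons, so a mark at a start site enters them through the first exon and weighs most in short or single-exon genes. How many methyl groups the antibody recognises is not in the labels. They do give the catalogue number ab8898, which the vendor is known to use for an antibody against trimethylated H3K9, a mark of silent chromatin. The name and the number in the labels thus point to different marks, and the name is used below.

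Promoter sequences are shown for 4 genes with H3K4 over input and for 2 under it, chosen after their values were seen, because CpG-rich start sites are where H3K4 methylation is known to lie. They come from RefSeq (build GRCm38.p6, while the counts are on mm9) and span 250 bases before to 50 after the start, 5′ to 3′, with each CG dinucleotide in capitals. Where RefSeq lists several starts (Gas5 and Postn), the outermost one is shown.
Pcbp1, chr6:86526140-86526439, minus strand, 32 CG: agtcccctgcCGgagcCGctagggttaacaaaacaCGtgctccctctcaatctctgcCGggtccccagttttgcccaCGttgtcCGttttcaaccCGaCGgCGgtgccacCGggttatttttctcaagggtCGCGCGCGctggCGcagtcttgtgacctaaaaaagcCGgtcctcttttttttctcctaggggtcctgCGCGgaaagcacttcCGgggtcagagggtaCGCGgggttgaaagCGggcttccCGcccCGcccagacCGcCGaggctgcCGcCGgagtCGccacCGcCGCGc
Gas5, chr1:161034351-161034650, plus strand, 33 CG: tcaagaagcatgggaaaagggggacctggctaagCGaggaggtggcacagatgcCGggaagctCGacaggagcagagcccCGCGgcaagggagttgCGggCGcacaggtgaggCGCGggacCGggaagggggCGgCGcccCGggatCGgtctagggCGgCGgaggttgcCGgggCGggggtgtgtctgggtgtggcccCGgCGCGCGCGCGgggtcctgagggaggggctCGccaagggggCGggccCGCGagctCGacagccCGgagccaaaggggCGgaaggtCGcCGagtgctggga
Rps27, chr3:90213599-90213898, minus strand, 22 CG: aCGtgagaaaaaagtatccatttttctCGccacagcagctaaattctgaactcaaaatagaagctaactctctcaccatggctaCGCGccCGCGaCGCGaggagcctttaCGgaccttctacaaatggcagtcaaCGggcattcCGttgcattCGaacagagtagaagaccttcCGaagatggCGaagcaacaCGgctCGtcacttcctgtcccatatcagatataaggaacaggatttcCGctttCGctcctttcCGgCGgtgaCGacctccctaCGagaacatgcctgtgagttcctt
Twist1, chr12:33957421-33957720, plus strand, 27 CG: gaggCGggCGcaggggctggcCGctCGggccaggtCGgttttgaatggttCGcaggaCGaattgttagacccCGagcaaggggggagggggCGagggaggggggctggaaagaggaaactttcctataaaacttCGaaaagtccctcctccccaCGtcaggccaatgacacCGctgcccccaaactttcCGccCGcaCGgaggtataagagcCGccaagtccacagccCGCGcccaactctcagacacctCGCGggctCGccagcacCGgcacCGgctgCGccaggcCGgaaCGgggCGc
Postn, chr3:54359017-54359316, plus strand, 4 CG: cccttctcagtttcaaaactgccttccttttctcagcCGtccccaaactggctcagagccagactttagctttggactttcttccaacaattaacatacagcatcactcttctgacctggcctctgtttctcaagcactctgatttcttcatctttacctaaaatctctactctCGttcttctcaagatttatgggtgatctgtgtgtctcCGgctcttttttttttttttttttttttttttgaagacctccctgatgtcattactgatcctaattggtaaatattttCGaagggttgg
Wnk2, chr13:49148279-49148578, minus strand, 5 CG: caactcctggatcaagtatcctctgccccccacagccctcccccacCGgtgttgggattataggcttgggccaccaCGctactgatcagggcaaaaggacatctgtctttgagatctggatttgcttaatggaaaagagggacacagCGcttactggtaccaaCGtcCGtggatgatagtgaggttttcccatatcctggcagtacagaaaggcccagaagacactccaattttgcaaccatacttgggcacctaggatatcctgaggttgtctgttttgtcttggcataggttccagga
CG was searched as those letters, which read the same on both strands, and 94.2% of the 27025 promoters of this length hold at least 1, with a median of 7. Of all these promoters, 8.3% held at least as many as Gas5, 9.27% at least as many as Pcbp1, 15.4% at least as many as Twist1 and 23.3% at least as many as Rps27. For Postn and Wnk2, 38.3% and 43.6% of promoters held as few or fewer. A relation of CG number to H3K4 over all genes was not computed, and 77.7% of the genes tested had a promoter sequence. The genes shown were picked singly, so their CG numbers cannot show such a relation. Most of each window lies upstream of the exons and is not in the counts.

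The reads of these genes, which were chosen by them, were as follows. Pcbp1, a single-exon gene for an RNA-binding protein, had 159 H3K4 reads and 16 input reads (5.20-fold, 3.10 to 9.32). Gas5, a noncoding host gene of small nucleolar RNAs, had 249 H3K4 reads and 27 input reads (4.82-fold, 3.24 to 7.47). It overlaps other genes, Zbtb37 and Snord47 among them, in the RefSeq annotation, and reads of overlapping genes cannot be told apart. Postn, which encodes the matrix protein periostin, had 24 H3K4 reads and 41 input reads (0.31-fold, 0.18 to 0.52). Wnk2, a kinase gene, had 13 H3K4 reads and 28 input reads (0.24-fold, 0.12 to 0.48).

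Over all 17584 genes, H3K4 was at least 2-fold higher than input at 1907 (10.8%) and at least 2-fold lower at 1533 (8.72%). The median log2 ratio was -0.03, with 90% of genes between -1.26 and 1.39. With the further demand that the 95% interval leave out 1, 976 genes (5.55%) were higher and 971 (5.52%) lower. As their choice by the ratio implies, genes at least 2-fold higher had a median of 22.9 H3K4 reads and 7.94 input reads on the RPKM scale (per exon length and library total), where all genes had 15.4 and 16.4. Genes at least 2-fold lower had 7.98 and 21.4. Of the 1907 higher genes, 986 had 0 to 4 input reads. A gene with so few input reads passes the minimum only through its H3K4 reads, so that none of the 1773 such genes was lower. Of genes with 40 or more input reads, 15 of 1199 (1.25%) were higher and 46 (3.84%) lower.

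**Figure D1:**
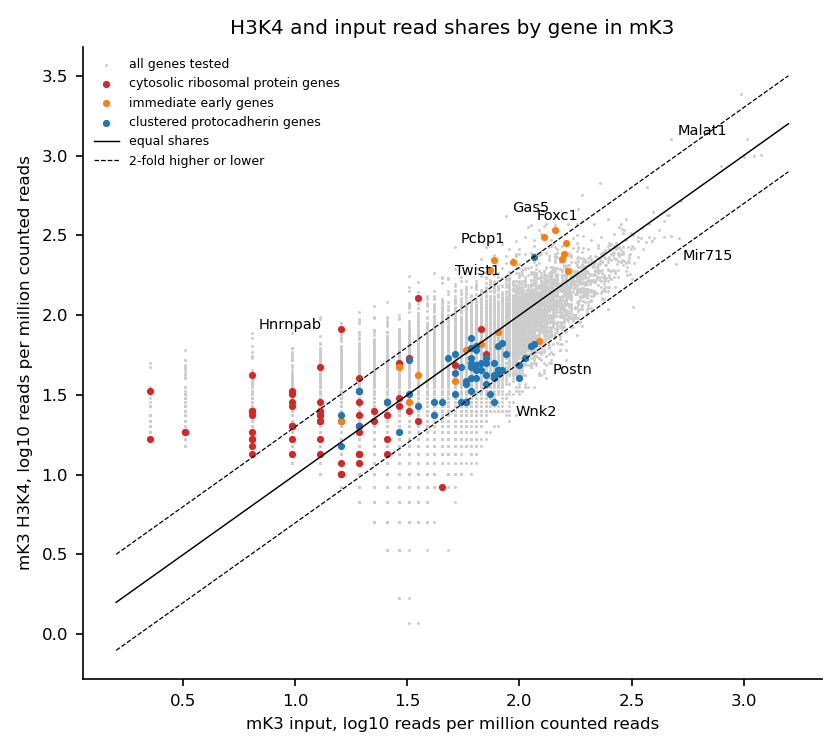
Each point is a gene, with its mK3 H3K4 reads (vertical axis) and mK3 input reads (horizontal axis) as shares of the counted reads on log10 scales, genes without reads in 1 library being drawn at 0.7 reads. The solid line marks equal shares and the dashed lines a 2-fold difference. Most ribosomal protein genes lie above the solid line at low input, most immediate early genes lie above it at higher input, and most clustered protocadherin genes lie below it.

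The 12 highest ratios among genes with at least 30 reads and an interval above 1, clone-named and small RNA genes left out, belonged to genes with 29 to 58 H3K4 reads and 1 to 4 input reads. Tpt1p, listed beside Tpt1 on chromosome 14, had 36 H3K4 reads and 1 input read (18.8-fold, 3.17 to 764). Tpt1, which shares its name, had 39 H3K4 and 4 input reads (5.10-fold, 1.84 to 19.6), and reads could be shared between near-identical copies. Eif3h, a subunit of a translation initiation factor, had 31 H3K4 and 1 input reads (16.2-fold, 2.70 to 661). Hnrnpab, which encodes an RNA-binding protein, had 46 H3K4 and 2 input reads (12.03-fold, 3.15 to 102). The intervals of these genes overlap widely, so that their order is not resolved. Tomm34 of mitochondrial protein import had 52 H3K4 and 3 input reads (9.07-fold, 2.94 to 45.4), and Cdca8 of the chromosomal passenger complex 46 and 3 (8.02-fold, 2.58 to 40.3). Stk11, the kinase LKB1, had 35 H3K4 and 2 input reads (9.15-fold, 2.35 to 78.6). Ubqln2 (7.59-fold), Rfng (8.37-fold), Nprl3 (8.63-fold), Tubb2c (8.63-fold), Stoml2 (15.2-fold) and Ttc23 (16.2-fold) made up the 12. Nprl3, Tubb2c and Stoml2 overlap another measured gene in RefSeq.

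Among genes with at least 15 input reads, a limit set after the values were seen, Pcbp1 and Gas5 had the highest ratios. They were followed by Cdkn1b, the cell cycle inhibitor p27, with 170 H3K4 and 23 input reads (3.87-fold, 2.49 to 6.26). Smad6, an inhibitor of BMP signalling, had 159 and 22 (3.78-fold, 2.41 to 6.20), and Id2, an inhibitor of basic helix-loop-helix factors and a BMP target, had 102 and 15 (3.56-fold, 2.06 to 6.59). The mK4 libraries held 714011 H3K4 and 386695 input reads, so raw counts there must be scaled too. The log2 ratio of shares in mK4 was 1.84 at Cdkn1b (165 H3K4 and 25 input reads). It was 1.27 at Smad6 (116 and 26) and 1.38 at Id2 (72 and 15). Of the genes in this list, Hnrnpa0 (0.62) and Twist1 (-4.21) were not 2-fold higher in mK4. Fscn1, an actin-bundling protein gene, had 133 H3K4 and 21 input reads (3.31-fold, 2.08 to 5.53), and the small GTPase gene Arf6 had 213 and 34 (3.28-fold, 2.27 to 4.86). The splicing genes Hnrnpa0 (116 and 16 reads, 3.79-fold, 2.24 to 6.86) and Srsf2 (141 and 24 reads, 3.07-fold, 1.98 to 4.96, overlapping Mfsd11) and the gene Cdv3 (102 and 15 reads, 3.56-fold, 2.06 to 6.59) were the others besides Twist1 and Foxc1, which are described below. The nuclear noncoding RNA genes Malat1 and Neat1 had 759 and 404 H3K4 reads over 148 and 71 input reads (2.68-fold, 2.25 to 3.22, and 2.98-fold, 2.31 to 3.89).

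Gene classes were set beside the share of all genes, 10.8% higher and 8.72% lower. The classes and their members were chosen with earlier results of these data known, so their shares are descriptive. Among the classes with more than 10 members tested, cytosolic ribosomal protein and proteasome genes had the largest shares of higher members. Cytosolic ribosomal protein genes, which are transcribed strongly in dividing cells, were higher at 25 of 64 members tested (39.1%) and lower at 1, Rpl27, with a median log2 ratio of 0.78 where all genes had -0.03. They had few reads, a median of 18 in both files together, and only 6 of the 25 had an interval above 1. Of the 64 members, 57 lay among the 3517 genes with the shortest exons in sum, of which 22.0% were higher. Rpl8 had 76 H3K4 and 11 input reads (3.61-fold, 1.91 to 7.54), Rps27 49 and 5 (5.13-fold, 2.05 to 16.5), Rplp0 25 and 2 (6.54-fold, 1.63 to 57.0) and Rpl30 28 and 4 (3.66-fold, 1.28 to 14.4). Summed over the class, the H3K4 share was 1.53-fold the input share (1.36 to 1.73). A further 17 members of the 81 had fewer than 10 reads. Of the 8 members with at least 10 input reads, 1 was higher and 1 lower, with a median of -0.19.

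Proteasome genes, the machinery of protein degradation, were higher at 16 of 45 members (35.6%) and lower at 1, with a median of 0.52 and a summed ratio of 1.35 (1.21 to 1.51). Psmd8 had 29 H3K4 and 4 input reads (3.79-fold, 1.33 to 14.8) and Psmg4, an assembly chaperone, had 19 and 1 (9.94-fold, 1.58 to 413). Oxidative phosphorylation genes were higher at 15 of 62 (24.2%) and lower at 4, with a median of 0.40 and a summed ratio of 1.26 (1.14 to 1.40). Among them Atp5c1, a subunit of ATP synthase, had 84 H3K4 and 10 input reads (4.39-fold, 2.27 to 9.50). Mitochondrial ribosomal protein genes were higher at 14 of 67 (20.9%) and lower at 1, with a median of 0.44 and a summed ratio of 1.33 (1.21 to 1.45). Over all genes 10.8% were higher. Most members of each class in this paragraph lay among the genes with the shortest exons, of which 22.0% were higher. Mrpl53 had 39 H3K4 and 7 input reads (2.91-fold, 1.29 to 7.72), but overlaps Ccdc142. With no read minimum, oxidative phosphorylation genes were higher at 15 of 77 and lower at 9, and their median fell to 0.07. The medians of proteasome and mitochondrial ribosomal protein genes were then 0.46 and 0.39. Because a count of 0 is set to 3, a gene with 1 H3K4 read and no input read is called lower without a minimum. The lower calls and the fall of the medians can partly come from this setting. Among members with at least 10 input reads, a limit that removes high ratios because input is their denominator, 0 of 21 proteasome, 1 of 25 oxidative phosphorylation and 1 of 32 mitochondrial ribosomal protein genes were higher, beside 3.12% of all such genes.

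The housekeeping list did not share this pattern. Of 23 members, 2 were higher (8.70%) and 1 lower, and the median was 0.07. In mK4, 5 were higher and 4 lower, and the median was 0.22. The list also had longer exons in sum, a median of 1939 bases beside 742.5 for cytosolic ribosomal protein genes. Its median of input reads was 13, beside 4.5 for those genes. The part of these differences in the contrast was not tested. Actb, cytoplasmic actin, had 102 H3K4 and 28 input reads (1.91-fold, 1.24 to 3.01), Gapdh of glycolysis 16 and 8 (1.05-fold, 0.42 to 2.82), and Polr2a, the large subunit of RNA polymerase II, 37 and 42 (0.46-fold, 0.29 to 0.73). Chromatin regulators were higher at 4 of 38 (10.5%) and lower at 1, with Bmi1 of Polycomb and Ehmt2, an H3K9 methyltransferase, at 66 H3K4 and 11 input reads each (3.14-fold, 1.65 to 6.59). Wdr5, a core subunit of the H3K4 methyltransferases, had 18 and 27 (0.35-fold, 0.18 to 0.66).

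**Figure D2:**
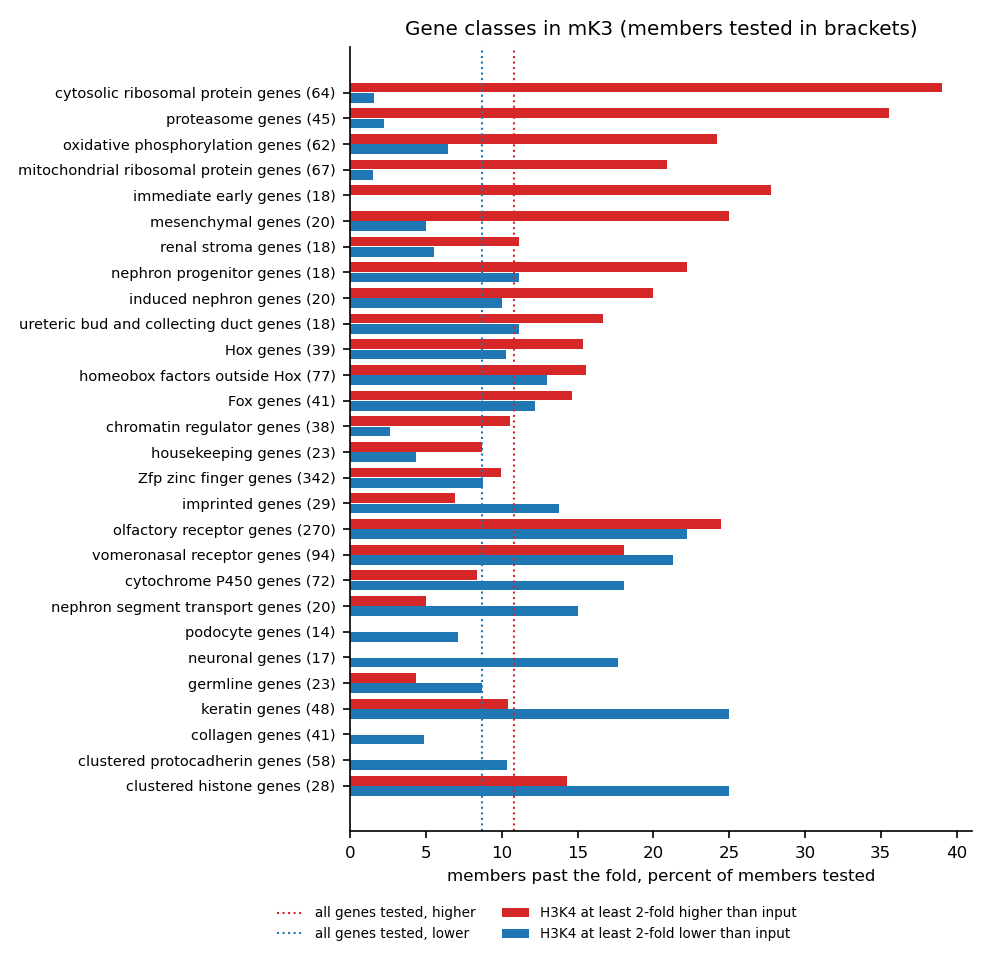
Bars give the percent of tested members of 28 gene classes with mK3 H3K4 at least 2-fold higher (red) or lower (blue) than mK3 input, and dotted lines the same percent over all 17584 genes. Ribosomal protein and proteasome genes have the longest red bars, while both bars are long for olfactory receptor genes.

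Immediate early genes, which encode factors induced within minutes of a stimulus, combined high counts with H3K4 signal. Of 18 members, 5 were higher (27.8%) and none lower, beside 10.8% and 8.72% of all genes. All 5 had an interval above 1, and the summed ratio of the class was 1.62 (1.47 to 1.80). Ier3 had 132 H3K4 and 24 input reads (2.88-fold, 1.85 to 4.65), Junb 114 and 23 (2.59-fold, 1.65 to 4.25), Ier5 183 and 40 (2.39-fold, 1.69 to 3.46), Jun 204 and 45 (2.37-fold, 1.71 to 3.35) and Dusp1 129 and 29 (2.33-fold, 1.55 to 3.61). Jun and Junb are subunits of the transcription factor AP-1. Not all members followed, with 36 and 18 reads at Fos (1.05-fold, 0.58 to 1.96) and 41 and 38 at Egr1 (0.56-fold, 0.35 to 0.90). All 5 higher members had at least 10 input reads, where 5 of 16 members tested were higher.

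Mesenchymal genes were higher at 5 of 20 members (25%) and lower at 1 (5%), beside 10.8% and 8.72% of all genes. Their median was 0.45 and their summed ratio 1.29 (1.16 to 1.43). The list was made with earlier results of these data known, so these values describe its members and cannot support enrichment of the class. Twist1, a transcription factor of mesenchymal cells, had 100 H3K4 and 15 input reads (3.49-fold, 2.02 to 6.46), and Snai1, which represses epithelial genes, had 40 and 8 (2.62-fold, 1.21 to 6.47). The others were the membrane metalloproteinase gene Mmp14 (86 and 16 reads, 2.81-fold, 1.64 to 5.14), Ptx3 (74 and 17, 2.28-fold, 1.33 to 4.12) and Twist2 (46 and 12, 2.01-fold, 1.05 to 4.16). The remaining members lay on both sides, from Vim, the intermediate filament vimentin, at 91 and 24 reads (1.98-fold, 1.25 to 3.25) to Postn at the low end. Renal stroma genes had a median of 0.29 in mK3 and 0.04 in mK4. In mK3, 2 of 18 were higher (11.1%) and 1 lower (5.56%), beside 10.8% and 8.72% of all genes, so the share of higher members was near that of all genes. Foxd1, the defining transcription factor of stromal progenitors, had 95 H3K4 and 24 input reads (2.07-fold, 1.31 to 3.39), and Meis1, a homeobox factor of the stroma, had 90 and 23 (2.05-fold, 1.28 to 3.39).

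Of 18 nephron progenitor genes, 4 were higher (22.2%) and 2 lower (11.1%), beside 10.8% and 8.72% of all genes, with a median of -0.21. By the interval rule 2 were higher and 1 lower. The higher ones included Six2, which holds nephron progenitors undifferentiated, with 28 H3K4 and 6 input reads (2.44-fold, 0.99 to 7.21). They also included Hoxc11 with 53 and 5 reads (5.54-fold, 2.23 to 17.8) and Fgf20 with 19 and 4 (2.48-fold, 0.83 to 10.04). Osr1 at 36 and 13 reads (1.45-fold, 0.75 to 2.98), Sall1 at 35 and 22 (0.83-fold, 0.47 to 1.49), Wt1 at 10 and 9 (0.58-fold, 0.21 to 1.62) and Eya1 at 20 and 20 (0.52-fold, 0.27 to 1.02) did not reach 2-fold in either direction. Pax2, a paired-box factor of the whole nephron lineage, was lower with 4 H3K4 and 10 input reads (0.21-fold, 0.05 to 0.73). Genes of the induced, early nephron were higher at 4 of 20 (20%) and lower at 2 (10%), beside the same shares of all genes. Their median was 0.12, and by the interval rule 2 were higher and 1 lower. Lhx1, required for the early nephron, had 33 and 8 reads (2.16-fold, 0.98 to 5.41), Irx3 37 and 3 (6.45-fold, 2.04 to 32.7), and Pax8 20 and 19 (0.55-fold, 0.28 to 1.09). Wnt4 had 1 H3K4 read and no input read and was not tested.

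Nephron segment transport and podocyte genes, of differentiated kidney segments, had medians and summed ratios under input. Their shares of lower members were 15% and 7.14%, beside 8.72% of all genes, and by the interval rule 1 member of each was lower. Their median exon lengths were 3296 and 5377.5 bases, beside 2709 for all genes. Genes with the longest exons in sum had a median of -0.11. The part of exon length was not tested. Nephron segment transport genes had a median of -0.33 and a summed ratio of 0.799 (0.705 to 0.907), with 1 of 20 higher and 3 lower, and Cubn, an endocytic receptor of the proximal tubule, had 84 H3K4 and 75 input reads (0.59-fold, 0.42 to 0.81). Podocyte genes had a median of -0.35 and a summed ratio of 0.807 (0.715 to 0.911), with 0 of 14 higher and 1 lower, and the phospholipase gene Plce1 had 75 and 74 reads (0.53-fold, 0.38 to 0.74). Ureteric bud and collecting duct genes had a median of 0.31 and a summed ratio of 1.33 (1.14 to 1.56). Of 18 members, 3 were higher (16.7%) and 2 lower (11.1%), beside 10.8% and 8.72% of all genes. In mK4 their median was -0.05, with 2 higher and 2 lower. The higher ones in mK3 included Emx2, a homeobox factor of the ureteric bud (89 and 18 reads, 2.59-fold, 1.55 to 4.56) and Etv4, an ETS factor downstream of Ret (37 and 7, 2.77-fold, 1.22 to 7.35). Epithelial junction genes had 4 of 22 higher and 3 lower, with a median of 0.04, and Cdh1, E-cadherin, had 39 and 21 reads (0.97-fold, 0.56 to 1.74).

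Families of developmental transcription factors had medians between -0.28 and 0.02, where all genes had -0.03. Fox genes had a median of -0.03, with 6 of 41 higher and 5 lower. The mesoderm factor Foxc1 had 220 H3K4 and 35 input reads (3.29-fold, 2.29 to 4.84) and its relative Foxc2 205 and 38 (2.82-fold, 1.99 to 4.10), whereas Foxo6 had 9 and 16 (0.29-fold, 0.11 to 0.71). Sox genes had 3 of 17 higher and 1 lower with a median of -0.20, and Sox4 had 173 H3K4 and 30 input reads (3.02-fold, 2.04 to 4.61), Sox7 28 and 32 (0.46-fold, 0.27 to 0.78). Hox genes were higher at 6 of 39 (15.4%) and lower at 4 (10.3%), with a median just under 0. The higher ones included Hoxc11, Hoxc13 (75 and 12 reads, 3.27-fold, 1.77 to 6.61) and Hoxc10 (81 and 17, 2.49-fold, 1.46 to 4.49) of the posterior HoxC cluster. The antisense gene Hoxa11as held the most H3K4 reads of any gene, 1450 over 302 input reads (2.51-fold, 2.22 to 2.85), but it overlaps Hoxa11, which had 594 and 347 (0.90-fold, 0.78 to 1.03), and their reads cannot be told apart. Homeobox factors outside Hox had 12 of 77 higher and 10 lower with a median of 0.02, with Irx3 and Hlx (72 and 8 reads, 4.71-fold, 2.27 to 11.3) among the higher ones. Sp and Klf genes had 2 of 25 higher, T-box genes 0 of 17, neurogenic basic helix-loop-helix genes 0 of 15 and Wnt ligands 2 of 18, with medians of -0.08, -0.28, -0.22 and -0.27.

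Zfp genes were included because exons of zinc finger genes are a known site of H3K9 trimethylation, the mark to which the catalogue number points. The class was given by the symbol alone, and which mark the antibody bound was not tested. Zfp genes were higher at 34 of 342 members (9.94%) and lower at 30 (8.77%), beside 10.8% and 8.72% of all genes, with a median of -0.08 and a summed ratio of 0.98 (0.95 to 1.01). Their highest member, Zfp747, had 31 H3K4 and 3 input reads (5.41-fold, 1.69 to 27.6), and the lowest among members with at least 20 reads, Zfp712 and Zfp456, had 9 and 20 and 10 and 22 (0.24-fold each, 0.09 to 0.54 and 0.10 to 0.52). Imprinted genes, whose silent alleles can carry H3K9 methylation, were higher at 2 of 29 and lower at 4, with a median of 0.07. Kcnq1ot1, a long imprinted noncoding RNA that overlaps Kcnq1, had 513 and 248 reads (1.08-fold, 0.93 to 1.26). Germline genes had 1 of 23 higher and 2 lower, with a median of -0.35 and a summed ratio of 0.78 (0.70 to 0.87).

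Olfactory receptor genes, which are silent outside the nose, passed the fold in both directions. Of 1126 members 270 had at least 10 reads, and of these 66 were higher (24.4%) and 60 lower (22.2%), with a median of -0.13. Their median was 13 reads in both files together, and an interval that left out 1 remained at 9 of the 66 and 28 of the 60. The summed ratio was 0.90 (0.84 to 0.96). Vomeronasal receptor genes were alike, with 17 of 94 higher, 20 lower, a median of -0.13 and a summed ratio of 0.825 (0.745 to 0.913). With no read minimum, 153 olfactory receptor genes were higher and 325 lower, with a median of -0.52. A count of 0 is set to 3 for the fold, so a gene with 1 H3K4 read and no input read is then called lower. These no-minimum values therefore cannot show a lean under input.

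**Figure D3:**
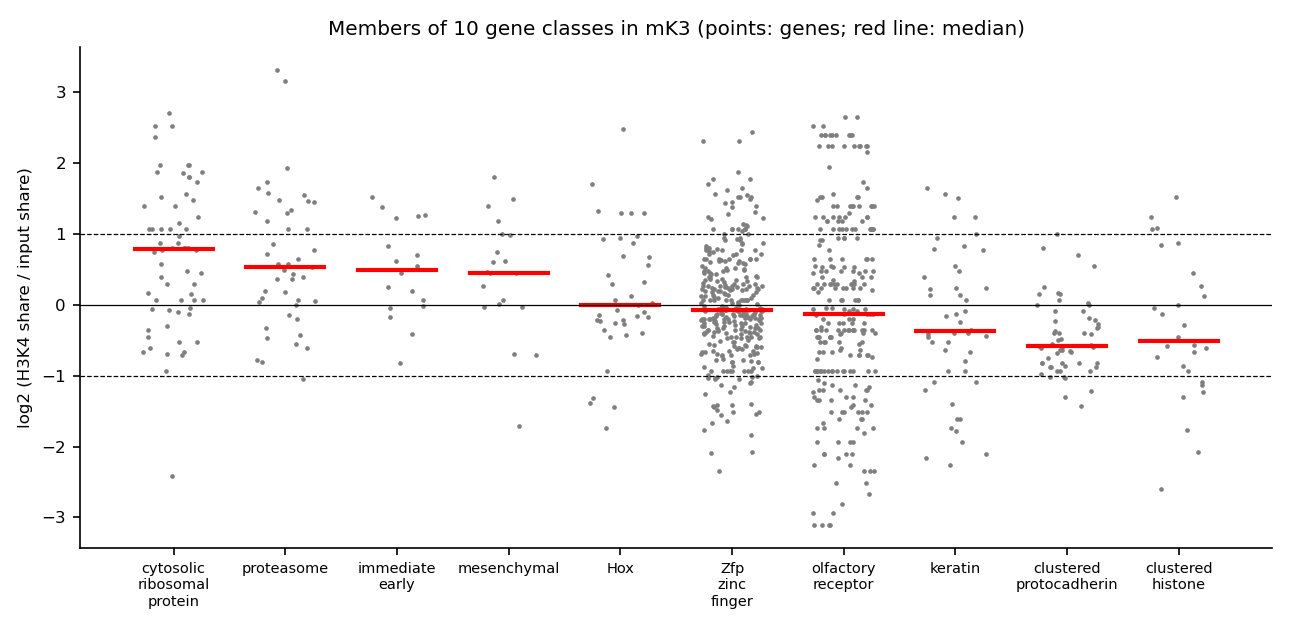
Points give the log2 ratio of H3K4 share to input share for each tested member of 10 gene classes in mK3, red lines the class medians and dashed lines 2-fold. Ribosomal protein genes lie mostly above 0, olfactory receptor genes spread to both sides, and clustered protocadherin genes lie mostly below 0.

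Among classes with more than 10 members tested, clustered protocadherin, neuronal, clustered histone and keratin genes had the lowest medians. Clustered protocadherin genes, which give neurons their surface identity, had 0 of 58 higher and 6 lower (10.3%), beside 8.72% of all genes lower. Their median was -0.58 and their summed ratio 0.73 (0.68 to 0.79). Their median exon length was 4582.5 bases, within the range of the longest group (4503 to 104634 bases). In that group 1.96% of genes were higher and the median was -0.11, and the part of exon length was not tested. With the summed input of both lines as background, 2 clustered protocadherin genes were higher and 4 lower. Their median was then -0.16, so the size of the lean depends on the input used. Pcdhb5 had 17 H3K4 and 24 input reads (0.37-fold, 0.19 to 0.72). The alpha genes of this class overlap each other in RefSeq and share exons, so that their values are not independent. Clustered histone genes had 4 of 28 higher (14.3%) and 7 lower (25%), beside 10.8% and 8.72% of all genes. Their median was -0.51 and their summed ratio 0.76 (0.67 to 0.86). Hist1h4h had 6 H3K4 and 19 input reads (0.17-fold, 0.05 to 0.43), and Hist1h1e, a linker histone gene, had 40 and 46 (0.45-fold, 0.29 to 0.71). With exon length in place of input as the background 14 of the 28 were higher, with a median of 1.01, so that the direction depends on the background. A further 39 of 67 members had fewer than 10 reads, and reads could be split between near-identical copies.

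Keratin genes were higher at 5 of 48 (10.4%) and lower at 12 (25%), beside 10.8% and 8.72% of all genes. Their median was -0.37 and their summed ratio 0.818 (0.724 to 0.925), and Krt73 had 8 H3K4 and 20 input reads (0.21-fold, 0.08 to 0.50). Neuronal genes had 0 of 17 higher and 3 lower with a median of -0.52 and a summed ratio of 0.786 (0.677 to 0.915), with 11 H3K4 and 16 input reads at Snap25 of synaptic vesicle release (0.36-fold, 0.15 to 0.83). Collagen genes had 0 of 41 higher and 2 lower with a median of -0.14, and Col11a1 had 38 and 42 reads (0.47-fold, 0.30 to 0.75). The median exon length of collagen genes was 5694 bases, and 1.96% of all genes in the longest group (4503 to 104634 bases) were higher. Cytochrome P450 genes had 6 of 72 higher and 13 lower (18.1%), endothelial genes 1 of 14 and 1, muscle and cardiac genes 3 of 14 and 3, and blood and immune genes 0 of 9 and 0. Small nucleolar RNA genes were higher at 5 of 10 tested, with many lying inside host genes whose reads they share, and microRNA genes at 4 of 10. Keratin-associated protein, defensin and Rhox genes had 9, 5 and 1 members tested. Clone-named genes, 1816 of those tested, were higher at 13.9% and lower at 11.3%.

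The 12 lowest single genes with at least 30 reads and an interval below 1 had ratios between 0.22 and 0.26. Lyl1, a basic helix-loop-helix factor of blood, had 9 H3K4 and 21 input reads (0.22-fold, 0.09 to 0.51), though it overlaps Nfix in the annotation. Prnd, a relative of the prion protein gene, had 14 and 30 (0.24-fold, 0.12 to 0.47), Slc36a4, an amino acid transporter gene, 15 and 31 (0.25-fold, 0.13 to 0.48), and Bsg, which encodes basigin, 14 and 28 (0.26-fold, 0.13 to 0.51). Cdh15, Papln, Kifc3, Ccdc154, Fam45a, Gyk and the named Wnk2 and Zfp456 were the others. Kifc3 and Papln each overlap another gene in the annotation.

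H3K4 over input depended on exon length. In the 3517 genes with the shortest exons in sum (67 to 1563 bases), 22.0% were higher and 12.8% lower, with a median of 0.15. In the 3517 with the longest (4503 to 104634 bases) 1.96% were higher and 3.55% lower, with a median of -0.11. The median fell with every step between, to 0.07, -0.02 and -0.06 in the groups from short to long. Short genes also had fewer reads, a median of 19 against 83 in both files together, which widens their ratios on both sides. The interval rule gave 8.56% higher and 5.77% lower in the shortest group and 1.65% and 3.24% in the longest. Of the ribosomal protein genes 57 of 64 lay in the shortest group, in which 22.0% of genes were higher, and 39.1% of the class were. Of oxidative phosphorylation genes 51 of 62 lay there, of mitochondrial ribosomal protein genes 50 of 67 and of olfactory receptor genes 243 of 270, and their shares of higher members (24.2%, 20.9% and 24.4%) were near that 22.0%. Of proteasome genes, 35.6% of them higher, 28 of 45 lay there, and of immediate early and mesenchymal genes 3 of 18 and 3 of 20. The part of exon length in the class differences was not tested. By chromosome the medians lay between -0.12 on chromosome 14 and 0.03 on chromosome 11, the share of higher genes between 7.36% on chromosome 15 and 16.0% on chromosome 7, and the share of lower genes between 6.38% on chromosome 18 and 12.3% on chromosome 7.

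**Figure D4:**
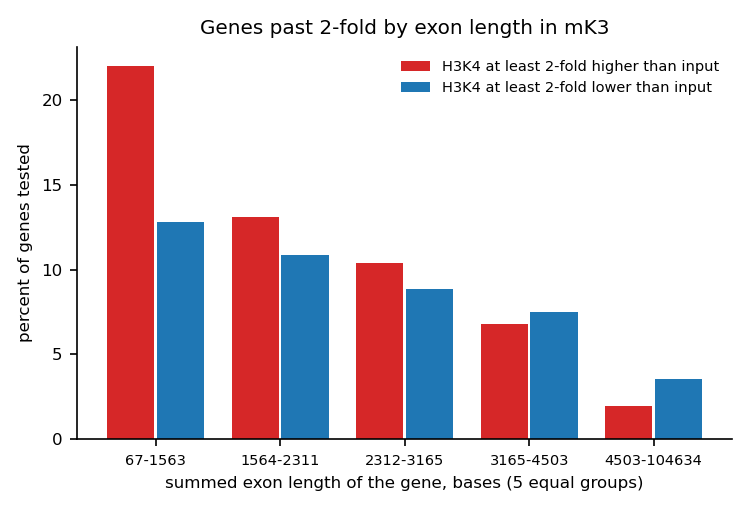
Bars give the percent of mK3 genes with H3K4 at least 2-fold higher (red) or lower (blue) than input in 5 equal groups of genes by summed exon length. The red bar falls from 22.0% in the shortest group to 1.96% in the longest, and the blue bar from 12.8% to 3.55%.

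The same antibody in mK4, set over mK4 input, shared no library with the mK3 comparison. In mK4, 9.42% of its 18224 genes with enough reads were higher and 7.49% lower. Among the 16977 genes tested in both lines, 1776 were higher in mK3 and 1520 in mK4, and 420 in both. These were 23.6% of the mK3 genes and 27.6% of the mK4 genes, beside 8.95% of all genes tested in both lines that were higher in mK4. For lower genes the lines had 1415 in mK3, 1144 in mK4 and 177 in both, which were 12.5% of the mK3 genes beside 6.74% of all. Genes higher in mK3 had a median log2 ratio of 0.34 in mK4, and genes lower in mK3 one of -0.21, where all had -0.02. Most single-gene calls of mK3 were therefore not repeated in the other line, and a true difference between the lines and counting error cannot be told apart here.

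Class medians of both lines were taken over the members tested in mK3, with no read minimum in mK4. A member could thus enter through its mK3 H3K4 reads but not through its mK4 reads, which favours high values in mK3. Of the 64 cytosolic ribosomal protein genes so taken, 61 had at least 10 H3K4 and input reads together in mK4. By class, the medians in mK3 and mK4 were 0.78 and 0.47 for cytosolic ribosomal protein genes, 0.52 and 0.47 for proteasome genes, 0.40 and 0.56 for oxidative phosphorylation genes, 0.44 and 0.66 for mitochondrial ribosomal protein genes and 0.50 and 0.40 for immediate early genes. Mesenchymal genes had 0.45 in mK3 and 0.01 in mK4, with Twist1 at 1 H3K4 and 10 input reads in mK4. Podocyte genes had -0.35 and 0.01, neuronal genes -0.52 and a value near 0, and keratin genes -0.37 and 0.04, while clustered histone genes had -0.51 and -0.61 and germline genes -0.35 and -0.47. These differences between the lines were not tested, as each line had 1 library of a kind.

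In mK3 the H3K27 library was set over the same input as H3K4, so that the values stand side by side and no overlap is read from them. H3K4 was at least 2-fold higher than input at 10.8% of genes and H3K27 at 18.0% of the 18414 genes that had enough reads for it. Class medians for both antibodies were taken over members with at least 10 H3K4 and input reads together. A member could thus enter through its H3K4 reads but not through its H3K27 reads. Of 64 such cytosolic ribosomal protein genes, 32 had as many H3K27 and input reads, as did all 18 immediate early and all 20 mesenchymal genes. The class medians for H3K4 and H3K27 were 0.78 and -0.56 at cytosolic ribosomal protein genes, 0.50 and -0.57 at immediate early genes and 0.45 and -0.51 at mesenchymal genes. They were -0.22 and 1.47 at neurogenic basic helix-loop-helix genes, -0.37 and 0.82 at keratin genes and 0.02 and 0.91 at homeobox factors outside Hox. Zfp genes had -0.08 and -0.28, and clustered histone genes -0.51 and -1.50. Smad6, with 159 H3K4 reads, had 20 H3K27 reads over its 22 input reads, and Irx3, with 37 H3K4 reads, had 37 H3K27 reads over its 3 input reads.

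**Figure D5:**
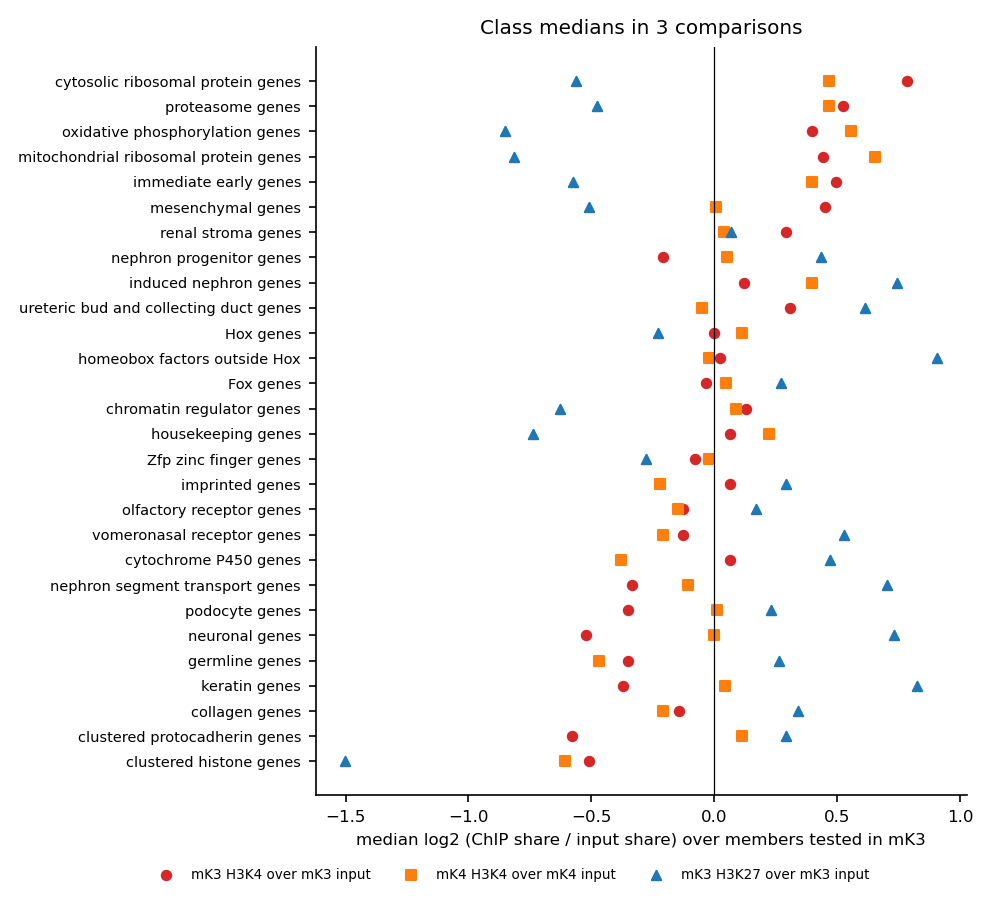
Symbols give the median log2 ratio of ChIP share to input share for mK3 H3K4 (circles), mK4 H3K4 (squares) and mK3 H3K27 (triangles), each over the input of its line. All medians are over those members of 28 gene classes that were tested for mK3 H3K4. Circles and squares stand right of 0 and triangles left of it at ribosomal protein, proteasome and immediate early genes, and clustered protocadherin genes have circles at -0.58 and squares at 0.12.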

How the data were processed

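Counts per gene were compared between the H3K4 and the input library of mK3, 1 library each, with mK4 H3K4, mK4 input and mK3 H3K27 used for comparison. Per the file headers, the authors deposited whole read counts per gene, the summed exon length, and RPKM, the count scaled by exon length and library total. Recomputing the RPKM from count, exon length and file total gave the deposited values, so the totals are sums over exons. Reads were placed on mm9, as the submitters' processing notes list. The aligner is not given in the sources used here, nor is duplicate removal. A commercial service made the libraries, per the labels' protocols.

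Each count was divided by its column sum over all 22088 rows. Of 137 symbols with several rows (151 extra rows), the row with the most reads in both files was kept. A count of 0 was set to 3 for a fold, which is then a bound. Called means 2-fold. Because there is 1 library per group, no count model was fitted and no p-value computed. Intervals are exact 95% Clopper-Pearson intervals. PCR duplicates are not independent molecules, so that intervals cover counting error only. The calculation was tested on simulated data. Alternatives were other read minimums, a pseudocount of 5, the interval rule, centring, exon length or the summed inputs as background, and summed rows. A minimum of 10 input reads was added after the data were seen. The 43 gene classes and the members were chosen with earlier results of these data known.

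Named genes are the 12 highest and 12 lowest ratios among genes with at least 30 reads and an interval that leaves out 1 (clone-named and small RNA genes left out), up to 4 members of each class with at least 20 reads and the largest ratio in size, and genes fixed by name. Others (those with at least 15 input reads, Tpt1, Rpl27, Dusp1, Ptx3, Twist2, Vim, Fos, Egr1, Hoxa11as and Kcnq1ot1) were chosen after their values were seen. Overlaps and promoters were looked up in RefSeq (GRCm38.p6), where 19324 symbols matched by symbol, 2290 by synonym and 323 not at all. Python 3.11.15, pandas 2.3.3, numpy 2.4.6 and scipy 1.17.1 were used. Some genes that the rule names are not reported here.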

Additional observations from a re-analysis of the deposited data

Results flagged for a closer look

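Several values stood on opposite sides of input in the 2 lines, past 2-fold in both for the single genes. The difference between the lines was not tested, since each line had 1 H3K4 and 1 input library. Single genes were looked for only among the named genes, many of them chosen for a large ratio in mK3. Such a choice makes a smaller or opposite value in mK4 more likely. The log2 ratio of H3K4 to input was 1.80 in mK3 and -4.21 in mK4 at Twist1, and 1.04 in mK3 and -1.37 in mK4 at Sox12. At Cyp2c38 it was 2.77 in mK3 and -1.01 in mK4, while at Cyp2c44 it was -1.31 in mK3 and 1.14 in mK4. Keratin genes on the mK3-low side were Krt73 at -2.26 in mK3 and 1.25 in mK4 and Krt36 at -1.74 in mK3 and 1.70 in mK4. Cdh15, a cadherin gene of muscle, had -1.93 in mK3 and 1.12 in mK4, and the vomeronasal receptor gene Vmn2r99 had -1.67 in mK3 and 1.23 in mK4. The median over clustered protocadherin genes was -0.58 in mK3 and 0.12 in mK4. The ribosomal protein gene Rpl27 had -2.42 in mK3 and 1.19 in mK4. Several of these values rest on few reads. In mK4, Vmn2r99 had 13 H3K4 and 3 input reads, Krt36 had 18 and 3, and Rpl27 had 21 and 5. Cyp2c38 had 26 H3K4 and 2 input reads in mK3 and 11 and 12 in mK4. Sox12 had more, 114 and 29 in mK3 and 25 and 35 in mK4.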

How the results depend on the processing

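No paired analysis was possible because each group had 1 library, and for the same reason no library could be left out. The counts at the 2-fold limit depended on the read minimum. A minimum of 20 reads left 927 genes lower, 4 olfactory receptor and 10 cytosolic ribosomal protein genes higher and 2 Hox genes lower. A minimum of 50 left 432 genes higher and 172 lower, with 10 Zfp, 0 olfactory receptor and 2 ribosomal protein genes higher, 0 Hox genes lower, 137 genes higher in both lines and 959 higher for H3K27. With no minimum, 2628 genes were lower and 153 olfactory receptor genes higher (325 lower). There, a count of 0 set to 3 can exceed the count of the other library, so that a gene without input reads can be called lower. A pseudocount of 5 gave 856 higher and 641 lower, 15 Zfp, 15 olfactory receptor and 13 ribosomal protein genes higher, 1 Hox gene lower, 157 in both lines and 1916 for H3K27. The interval rule gave 976 and 971, with 20 Zfp, 9 olfactory receptor and 6 ribosomal protein genes higher, 2 Hox genes lower, 238 in both lines and 2016 for H3K27. With exon length as background, 19 Zfp, 4 olfactory receptor and 16 Hox genes were higher, 2 Hox genes lower, 1161 genes higher in both lines and 1205 for H3K27. The calls split into 48.0% higher there, where input as background gave 55.4%, and 583 of the 1907 higher and 775 of the 1533 lower genes kept their call. The log2 values of single genes turned to 0.39 at Hist1h4h, 1.12 at Hist1h1e and -0.081 at Cyp2c38 with exon length. The summed input of both lines gave 17 Zfp genes higher and 2 Hox genes lower, and 884 higher and 842 lower genes kept their call. A minimum of 10 input reads, added after the data were seen, left 365 genes higher, 9 Zfp, 0 olfactory receptor, 1 ribosomal protein and 3 Hox genes higher, 112 in both lines and 697 for H3K27. Median centring and summing rows of a symbol kept each of these counts within 1.5 times, though with centring 1 clustered protocadherin gene was higher (0 without) and 4 were lower (6 without). The cause of these shifts was not tested beyond the construction of each setting. Depth limits single genes, at a median of 26 H3K4 and 14 input reads.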
